A study of Mus musculus with 6 samples.

Results

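miR-21a is a mouse microRNA made from the hairpin gene Mir21a, and both strands of that hairpin were followed here: the guide strand miR-21a-5p and the passenger strand miR-21a-3p. They were chosen by name, as 2 of the 1960 mature miRNAs in the deposited count table. Small RNA was sequenced from immune cells isolated from livers of wildtype female C57BL/6J mice aged 10 weeks, in 3 groups of 2 libraries that the labels call biological replicates. Vehicle mice had no disease and received only the carrier, DMSO in corn oil. ConA+Vehicle mice received the carrier and 12.5 mg/kg of concanavalin A (ConA), a jack bean lectin used to induce T cell-driven liver injury in mice, injected retro-orbitally. ConA+D8THC mice received the same ConA and, into the peritoneum, 20 mg/kg of delta-8-tetrahydrocannabinol (D8THC), a cannabinoid, first 15 to 18 h ahead of ConA and a second time 30 min later than ConA. The sources used here give neither the hour of tissue collection nor the number of mice behind a library, so the p-values measure the spread between these libraries.

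A miRNA hairpin is cut by Dicer into a short duplex, of which usually 1 strand, the guide, is kept in an Argonaute protein while the passenger strand is degraded. The guide pairs through its seed, bases 2 to 8, with target messenger RNAs. miR-21 is among the most abundant miRNAs of many cell types, its transcription is induced by AP-1 and STAT3, and it is known for repressing Pdcd4, an inhibitor of translation. It is raised in activated T cells and macrophages, and liver cells such as hepatocytes and stellate cells also make it.

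The arms and the 2 near-copies that the table lists, miR-21b and miR-21c, are printed because reads of near-identical miRNAs can be exchanged. The sequences are RefSeq's (GRCm38.p6, which is mm10), 5′ to 3′, with the seed in capitals.
miR-21a-5p: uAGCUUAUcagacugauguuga
miR-21c: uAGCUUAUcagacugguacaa
miR-21b: uAGUUUAUcagacugauauuucc
miR-21a-3p: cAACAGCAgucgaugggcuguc
Of the table's miRNAs, 1671 had a sequence in the RefSeq table. Among them 1 other, miR-21c, had the seed of miR-21a-5p (AGCUUAU), and 0 others had that of miR-21a-3p (AACAGCA). Positions counted from the 5′ end, miR-21c differed from miR-21a-5p by A16G, G18A, U19C, U20A and G21A. miR-21b differed by C4U, which lies in the seed, and by G18A, G21U and A22C. miR-21c had no count in any library. miR-21b had 14 counts over the 6 libraries, with 8 in ConA+D8THC replicate 1 and between 0 and 3 in the others, against 242526 for miR-21a-5p. How the authors assigned reads that match more than 1 of these miRNAs was not stated, so the split between miR-21a-5p and miR-21b is uncertain to that extent.

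The Mir21a hairpin (chr11:86584067-86584158, minus strand) lies in the 3′ untranslated part of the last exon of Vmp1, a gene for an autophagy protein on the same strand, in GENCODE M21. miR-21a-5p maps to chr11:86584120-86584141 and miR-21a-3p to chr11:86584082-86584103. Both are 22 bases long. The guide starts with U and holds 8 G or C, and the passenger starts with C and holds 13. In the minimum-energy fold of the 92-base hairpin, 19 bases of the guide paired with bases of the passenger. Mir21b (chr3:29636744-29636851) lies within Egfem1, and Mir21c is at chr8:128278148-128278225.

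Library totals ran from 322764 to 1172389 counts, and the ConA+Vehicle libraries were the smallest. Values are given as CPM, counts per 1000000 after trimmed-mean (TMM) scaling of the library sizes, and 3 counts, the upper limit for a miRNA with none, correspond to 2.63 to 9.93 CPM depending on the library. The cells were labelled liver immune cells, but markers of several cell types were present in every library. miR-142a, made by blood cells, took 2.53% to 11.2% of counts, the endothelial miR-126a 12.8% to 34.2%, and 6 hepatocyte miRNAs led by miR-122-5p 5.18% to 19.7%. In such bulk libraries, more cells that contain miR-21a and more miR-21a per cell cannot be told apart.

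The guide strand was about 3 times as abundant in both groups given ConA as in Vehicle. miR-21a-5p was at 40343 and 16407 CPM in Vehicle replicates 1 and 2, at 79048 and 85678 CPM in ConA+Vehicle, and at 89006 and 72176 CPM in ConA+D8THC. All 4 libraries from ConA-treated mice were above both Vehicle libraries, and those of ConA+Vehicle lay within the range of ConA+D8THC. By raw count it ranked 7th and 14th among all miRNAs in the Vehicle libraries, 4th in both ConA+Vehicle libraries and 3rd in both ConA+D8THC libraries. It took 3.88% and 1.60% of all counts in Vehicle, 8.32% and 8.02% in ConA+Vehicle, and 9.44% and 7.34% in ConA+D8THC.

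The passenger strand was far scarcer and differed more between the groups. Its raw counts were 40 and 35 in Vehicle, 141 and 91 in ConA+Vehicle, and 525 and 238 in ConA+D8THC. miR-21a-3p was thus at 55.2 and 30.7 CPM in Vehicle, 352 and 301 CPM in ConA+Vehicle, and 542 and 339 CPM in ConA+D8THC. Vehicle was the lowest group without overlap, while ConA+D8THC replicate 2 lay between the ConA+Vehicle libraries. Its rank by raw count moved from 167th and 197th in Vehicle to 97th and 103rd in ConA+Vehicle and to 79th and 93rd in ConA+D8THC.

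**Figure D1:**
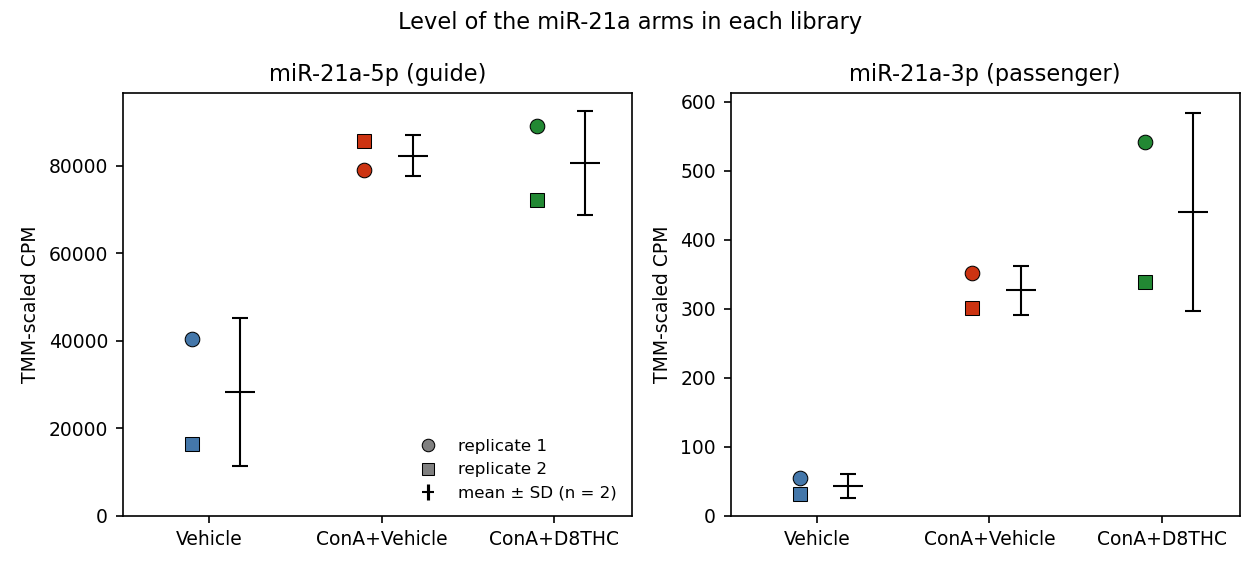
TMM-scaled CPM of miR-21a-5p (left) and miR-21a-3p (right) in each library of the 3 groups (circles replicate 1, squares replicate 2, with the mean and SD of 2 libraries beside them); both vertical axes start at 0. Both Vehicle libraries lie below all 4 libraries from ConA-treated mice for each arm, and the Vehicle libraries of miR-21a-5p stand apart from each other at 40343 and 16407 CPM.

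In order of mean level, miR-21a-5p was at 28375 ± 16925 CPM in Vehicle (SD, n = 2), 80591 ± 11901 in ConA+D8THC and 82363 ± 4688 in ConA+Vehicle, and the upper 2 groups did not differ beyond their spread. Its neighbours in the order of miRNAs were let-7a-5p (28703 CPM) and miR-26a-5p (25577 CPM) in Vehicle. In both ConA groups they were miR-16-5p above (89712 ± 7652 CPM in ConA+Vehicle) and miR-142a-3p below (75108 ± 731 CPM). In ConA+D8THC the same neighbours were at 91443 ± 2200 and 70672 ± 15691 CPM, and the range of miR-21a-5p overlapped that of miR-142a-3p. In ConA+Vehicle it overlapped that of miR-16-5p, and in Vehicle it spanned those of let-7a-5p and miR-26a-5p. The order of such neighbours is thus not settled in any group. Mature miRNAs are of nearly equal length, and CPM is not scaled by length. How efficiently each one enters a library was not tested.

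The effect of ConA itself was read from ConA+Vehicle against Vehicle. miR-21a-5p rose 2.90-fold (log2 1.54 ± 0.38, standard error; edgeR quasi-likelihood test, adjusted p = 0.0123), with a 95% interval of 1.60-fold to 5.28-fold. miR-21a-3p rose 7.74-fold (log2 2.95 ± 0.37, adjusted p = 0.000348), with an interval of 4.41-fold to 13.6-fold. The test called 36.7% of the 297 miRNAs tested in this comparison, 19.9% as higher and 16.8% as lower. By size of increase miR-21a-3p was 14th and miR-21a-5p 41st of the 297. Groups without overlap were common, at 67.3% of all miRNAs tested, with 38% higher in ConA+Vehicle. Leaving out Vehicle replicate 1 moved the guide to 5.02-fold, and leaving out Vehicle replicate 2 moved it to 2.04-fold.

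Whether D8THC treatment altered either arm in mice with ConA hepatitis was asked by setting ConA+D8THC against ConA+Vehicle. miR-21a-5p was not called, at log2 -0.03 ± 0.37 (adjusted p = 0.990), and its 95% interval ran from 0.546-fold to 1.76-fold. miR-21a-3p was not called either, at log2 0.43 ± 0.33 (adjusted p = 0.591; 0.818-fold to 2.22-fold). The interval of the guide thus holds changes in both directions and does not show equal levels. The test called 3.7% of the 297 miRNAs in this comparison, all of them lower in ConA+D8THC, and 18.9% had an unadjusted p under 0.05. CPM of the groups did not overlap for 46.8% of them, while those of both arms of miR-21a did. Leaving out ConA+D8THC replicate 2 moved the passenger to log2 0.95, at an adjusted p of 0.0631.

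ConA+D8THC was also set against Vehicle, a comparison that shares its Vehicle libraries with the first. Here miR-21a-5p rose 2.84-fold (log2 1.51 ± 0.38, edgeR adjusted p = 0.0182; 95% interval 1.56-fold to 5.16-fold). miR-21a-3p rose 10.4-fold (log2 3.38 ± 0.36, adjusted p = 0.000164; 5.96-fold to 18.3-fold). The background was 32.7% of miRNAs called, 18.5% as higher and 14.1% as lower. Groups did not overlap for 74.7% of miRNAs, with 37.7% higher in ConA+D8THC. The passenger had the 5th largest increase of the 297 miRNAs and the guide the 32nd. The guide was 4.91-fold higher without Vehicle replicate 1 and 2.00-fold higher without Vehicle replicate 2.

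The spread of the guide within Vehicle was unusual for these libraries. Its higher Vehicle library exceeded the lower 2.46-fold, against 1.08-fold within ConA+Vehicle and 1.23-fold within ConA+D8THC. Only 9 of the 297 miRNAs differed more between the Vehicle libraries. Several cell type markers moved with the groups or with these libraries, and their part in the changes of miR-21a was not tested. miR-142a was at 7.31% and 2.53% of counts in Vehicle, 10.3% and 9.03% in ConA+Vehicle, and 11.2% and 7.72% in ConA+D8THC, the same order of replicates as for the guide in Vehicle. The 4 myeloid markers, led by miR-223-3p, summed to 0.348% and 0.365%, then 2.76% and 2.92%, then 2.18% and 1.48%, but did not move together. In ConA+Vehicle against Vehicle both arms of miR-223 were called higher and both arms of miR-511 lower, with 102 and 96 counts of miR-511-3p in Vehicle and 4 and 5 in ConA+Vehicle. Endothelial markers were at 32.7% and 34.2% of counts in Vehicle, 12.8% and 13.2% in ConA+Vehicle, and 20.7% and 26.7% in ConA+D8THC. Hepatocyte markers summed to 8.35% and 13.9%, then 17.1% and 19.7%, then 5.18% and 7.15%, mostly miR-122-5p. The means of miR-122-5p, miR-192-5p, miR-194-5p, miR-802-5p and miR-148a-3p were higher in ConA+Vehicle than in Vehicle. That of miR-122-3p was lower, at 173 CPM in Vehicle and 75.5 CPM in ConA+Vehicle. The 4 lymphocyte markers summed to between 0.517% and 1.08%, but did not all move alike. In ConA+D8THC against Vehicle miR-342-3p was called higher (2.12-fold, edgeR adjusted p = 0.0102). The mean of miR-150-5p, the most abundant of them, was 5443 CPM in Vehicle and 5232 CPM in ConA+D8THC. No marker of any of these lists was at 0 in a library.

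Among the counts left after removing the endothelial and hepatocyte markers, both ConA groups were again above Vehicle and overlapped each other. miR-21a-5p took 6.58% and 3.07% of them in Vehicle, 11.9% and 11.96% in ConA+Vehicle, and 12.7% and 11.1% in ConA+D8THC. Setting miR-21a against miR-142a, the blood-cell miRNA, gave a smaller difference. For each miR-142a count there were 0.531 and 0.631 counts of miR-21a-5p in Vehicle, 0.809 and 0.888 in ConA+Vehicle, and 0.845 and 0.951 in ConA+D8THC. The Vehicle libraries, which lay 2.46-fold apart in CPM, were close on this scale, and the group means of both ConA groups remained above Vehicle, by 1.46-fold and 1.55-fold. For each 1000 miR-142a counts there were 0.726 and 1.18 counts of miR-21a-3p in Vehicle, 3.60 and 3.12 in ConA+Vehicle, and 5.14 and 4.46 in ConA+D8THC. How many other miRNAs separate from Vehicle on either of these scales was not counted.

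**Figure D2:**
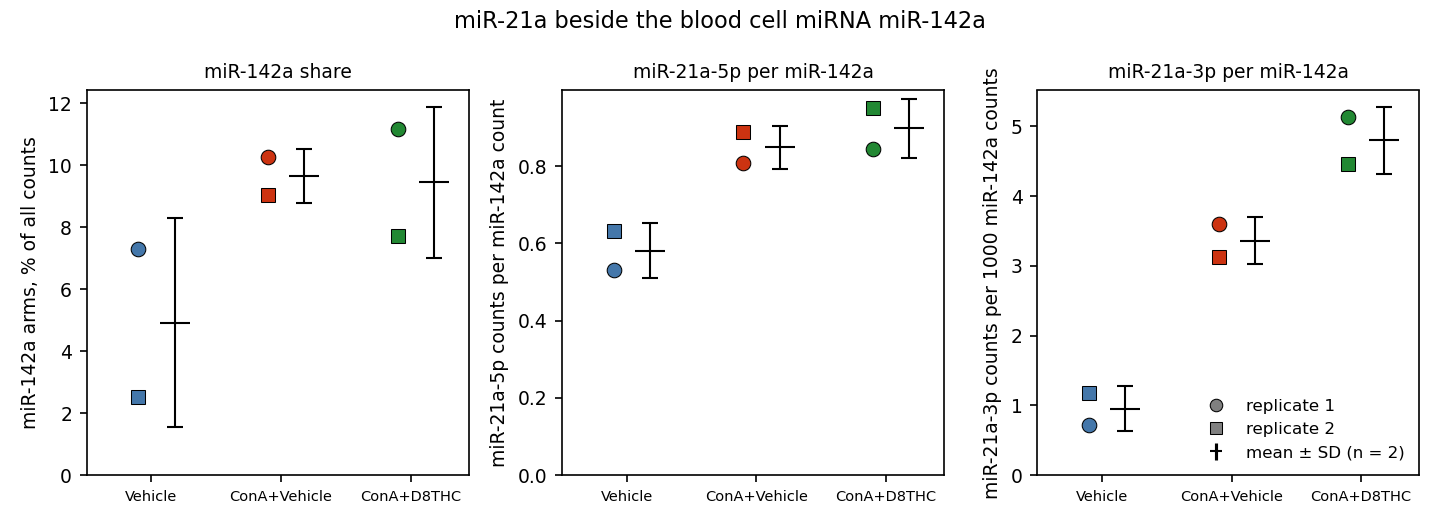
Share of all counts taken by both arms of miR-142a (left, %), miR-21a-5p counts per miR-142a count (middle) and miR-21a-3p counts per 1000 miR-142a counts (right) in each library (circles replicate 1, squares replicate 2, with the mean and SD of 2 libraries). miR-142a separates the Vehicle libraries at 7.31% and 2.53%, and both arms of miR-21a per miR-142a count are lower in Vehicle than in the other 4 libraries. The share of all miRNAs that are so on this scale was not counted. On the CPM scale, 38% of miRNAs tested were higher in ConA+Vehicle than in Vehicle without overlap, and 37.7% in ConA+D8THC.

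A fit in which each library was scaled to its miR-142a counts, chosen after seeing the data, ended the call of the guide. miR-21a-5p was then 1.46-fold higher in ConA+Vehicle (edgeR adjusted p = 0.598) and 1.55-fold higher in ConA+D8THC (adjusted p = 0.562) than in Vehicle. miR-21a-3p was 3.55-fold higher in ConA+Vehicle (adjusted p = 0.0655), past the threshold no longer, and 5.07-fold higher in ConA+D8THC (adjusted p = 0.0325). The standard errors of the log2 changes were larger than under TMM. For the guide they were 0.81 in both comparisons, against 0.38, and for the passenger 0.77 and 0.78, against 0.37 and 0.36. This scaling moved the median of all miRNAs to log2 -1.17 in ConA+Vehicle and -1.21 in ConA+D8THC against Vehicle, from 0.10 and -0.06. Relative to that median the guide was higher by log2 1.71 and 1.84, against 1.44 and 1.57 under TMM. The passenger was higher by 2.99 and 3.55, against 2.85 and 3.45. A scaling shifts all miRNAs of a library alike, so the distance to the median is largely fixed whatever the scaling. For the guide in ConA+Vehicle it was also 1.43 with unscaled library totals. These distances therefore do not test whether the rise withstands the scaling to miR-142a.

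The balance of the 2 arms within a library does not depend on how libraries are scaled, and it shifted toward the passenger in the mice given ConA. miR-21a-3p made up 0.137% (95% Clopper-Pearson interval 0.0976% to 0.186%) and 0.187% (0.130% to 0.259%) of miR-21a counts in Vehicle. The shares were 0.443% (0.373% to 0.522%) and 0.350% (0.282% to 0.430%) in ConA+Vehicle, and 0.605% (0.555% to 0.659%) and 0.467% (0.410% to 0.530%) in ConA+D8THC. The 3 groups did not overlap, which also held for 68.2% of the 66 hairpins with both arms tested between ConA+Vehicle and Vehicle, 43.9% between ConA+D8THC and ConA+Vehicle, and 74.2% between ConA+D8THC and Vehicle. For miR-21a, the interval of neither Vehicle library reached the lowest interval of the other groups. The intervals cover counting error only. In other terms there were 731 and 535 guide counts for each passenger count in Vehicle, 225 and 284 in ConA+Vehicle, and 164 and 213 in ConA+D8THC. The guide remained the dominant arm by more than 100-fold in every library.

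**Figure D3:**
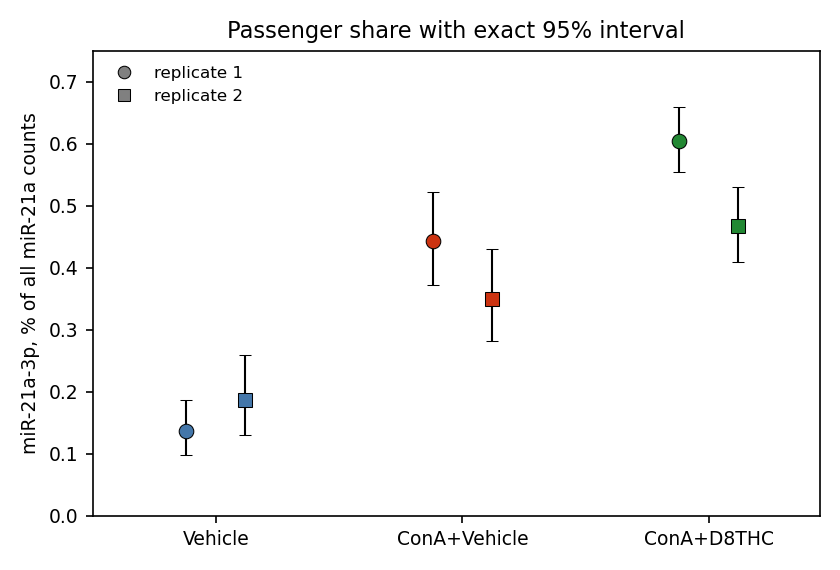
Share of all miR-21a counts that are miR-21a-3p (%) in each library, with exact 95% binomial intervals. The 2 Vehicle libraries lie at 0.137% and 0.187%, the ConA+Vehicle libraries at 0.443% and 0.350%, and the ConA+D8THC libraries at 0.605% and 0.467%.

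Against Vehicle, the ratio of passenger to guide rose 2.50-fold in ConA+Vehicle (log2 1.32 ± 0.32, edgeR adjusted p = 0.0111; 95% interval 1.55-fold to 4.02-fold). In this comparison 21.2% of the 66 hairpins with both arms tested were called. Called with a higher 3p to 5p ratio were 7.58% of the 66, and with a lower one 13.6%. In that ratio miR-21a had the largest increase of those called in this fit, the 3rd of all 66. This order goes by the names of the arms, and the 5p arm was dominant in only 40 of the 66. The ratio of miR-542, whose 3p arm held a mean of 94.7% in Vehicle, fell 3.17-fold, a larger gain of the minor arm than that of miR-21a. The miR-21a ratio rose 3.37-fold in ConA+D8THC (log2 1.75 ± 0.31, adjusted p = 0.00136; 2.13-fold to 5.33-fold), where 33.3% were called, 16.7% in each direction. That was the largest increase in the 3p to 5p ratio of the 66 in the edgeR fit. With limma on the log2 ratio it was the 2nd at a pseudocount of 0.5 and the 3rd at a pseudocount of 2. Larger shifts toward the arm that was minor in Vehicle included those of miR-511 (log2 -2.18) and miR-25 (-1.98), whose 3p arm was dominant there. Between ConA+D8THC and ConA+Vehicle the miR-21a ratio was not called, at log2 0.43 ± 0.28 (edgeR adjusted p = 0.627; 0.893-fold to 2.04-fold). That test called 0 hairpins, with 5 at an unadjusted p under 0.05, and limma on the log2 ratio called 0 with a pseudocount of 0.5 and 2 with a pseudocount of 2. The call in ConA+Vehicle was lost without ConA+Vehicle replicate 1 (log2 1.14, adjusted p = 0.0693), without replicate 2 (1.48, 0.0613) and with limma (1.29, 0.0663 at the smaller pseudocount; 1.26, 0.0514 at the larger). The call in ConA+D8THC was lost with limma at the smaller pseudocount (1.72, adjusted p = 0.0505).

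**Figure D4:**
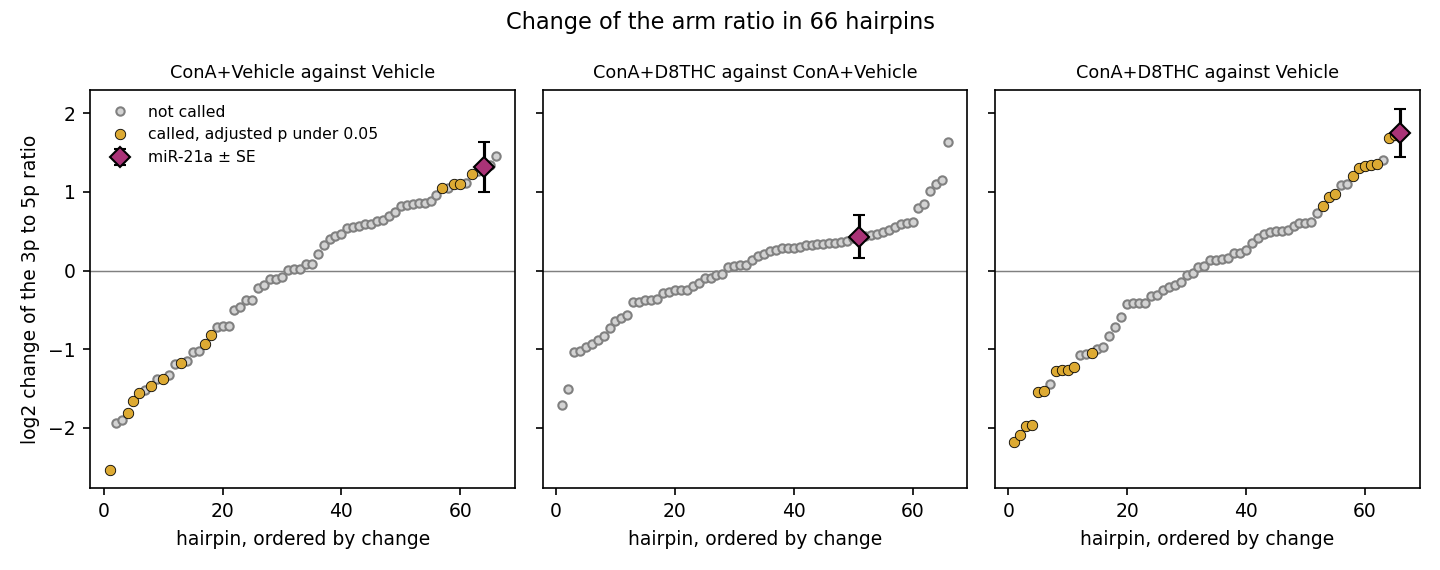
Log2 change of the 3p to 5p ratio for each of the 66 hairpins, in order of size, in the 3 comparisons (yellow: called at an adjusted p under 0.05; diamond with standard error: miR-21a). miR-21a lies near the upper end against Vehicle, at 1.32 in ConA+Vehicle and 1.75 in ConA+D8THC, and is not called between the ConA groups.

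Over all libraries the minor arm made up 0.439% of miR-21a counts, against a median of 6.02% over the 66 hairpins, and 6 hairpins had a smaller minor share. The median hairpin changed its ratio by log2 0.05 in ConA+Vehicle and 0.09 in ConA+D8THC against Vehicle. In ConA+Vehicle the other large called increases of the 3p to 5p ratio were those of miR-140 (log2 1.22, edgeR adjusted p = 0.00555) and miR-29c (1.11). In both the 3p arm was the dominant one, with a mean share of 73.2% and 98.6% in Vehicle. Unlike that of miR-21a, these rises were shifts toward the dominant arm. miR-15b was also called higher (1.05, edgeR adjusted p = 0.0163), and like miR-21a it shifted toward its minor arm. Its 3p and 5p arms averaged 78.0 and 784 CPM in Vehicle. The largest called decreases were those of miR-503 (-2.53, adjusted p = 0.000182), the hepatocyte miR-122 (-1.80) and miR-542 (-1.66). The ratio of miR-223, the neutrophil and macrophage miRNA whose guide is its 3p arm, rose by 1.10 (adjusted p = 0.0207). For miR-142a it was -0.37 (adjusted p = 0.295) and for the endothelial miR-126a -0.37 (adjusted p = 0.372). In ConA+D8THC against Vehicle, miR-345 (1.72) and miR-30b (1.69) followed miR-21a. The largest decreases were those of miR-511 (-2.18), miR-503 (-2.09) and miR-25 (-1.98). The mean share of the 3p arm in Vehicle was 71.2% for miR-345, 0.668% for miR-30b, 80.1% for miR-511, 55.3% for miR-503 and 99.9% for miR-25. The passenger arms of miR-155 and miR-146a were too scarce to be tested.

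Rises of both arms together were uncommon. Of the 66 hairpins, miR-21a was 1 of 5 whose 2 arms were both called higher in ConA+Vehicle against Vehicle, while 8 had both arms called lower and 24 had a single arm called. Against Vehicle, ConA+D8THC also had 5 hairpins with both arms called higher, miR-21a among them.

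Across the 6 libraries, the levels of other miRNAs were compared with each arm by Pearson's r of log2 CPM, as a description. The 290 miRNAs compared share libraries, depth and groups. Closest to miR-21a-5p were miR-340-5p (r = 0.990), miR-142a-5p (0.989), miR-18b-5p (0.987), miR-363-3p (0.982) and miR-185-5p (0.973). miR-340-5p was at 1385 and 654 CPM in Vehicle, 2219 and 2704 CPM in ConA+Vehicle, and 2567 and 1886 CPM in ConA+D8THC. miR-142a-5p was at 12175 and 5528 CPM in Vehicle, 22115 and 21853 CPM in ConA+Vehicle, and 23616 and 16320 CPM in ConA+D8THC. Both had the lower Vehicle value in replicate 2, as the guide did. Mir142a (Mir142 in GENCODE) lies 1.173 Mb from Mir21a on chromosome 11.

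The miRNAs with the highest r for the passenger were others, but r was at least 0.973 for the 5 closest to either arm. Which miRNAs rank among the 5 closest therefore does not show that the arms resemble different miRNAs. Closest to miR-21a-3p were miR-7a-5p (r = 0.995), miR-140-3p (0.994), miR-210-3p (0.993), miR-93-5p (0.991) and miR-146b-5p (0.989), and none of them was among the 5 closest to the guide. The 2 arms of miR-21a correlated with each other at 0.947. miR-7a-5p was at 1864 and 1338 CPM in Vehicle, 5106 and 5381 CPM in ConA+Vehicle, and 6664 and 5958 CPM in ConA+D8THC. miR-210-3p, known as a hypoxia-induced miRNA, was at 44.2 and 25.4 CPM in Vehicle, 242 and 238 CPM in ConA+Vehicle, and 281 and 202 CPM in ConA+D8THC. The closest miRNA to each arm is printed with miR-142a-5p to show that none has the seed of miR-21a.
miR-340-5p: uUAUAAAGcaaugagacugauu
miR-142a-5p: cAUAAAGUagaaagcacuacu
miR-7a-5p: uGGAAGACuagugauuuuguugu
The seeds of miR-340-5p and miR-142a-5p share the 6 bases AUAAAG.

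**Figure D5:**
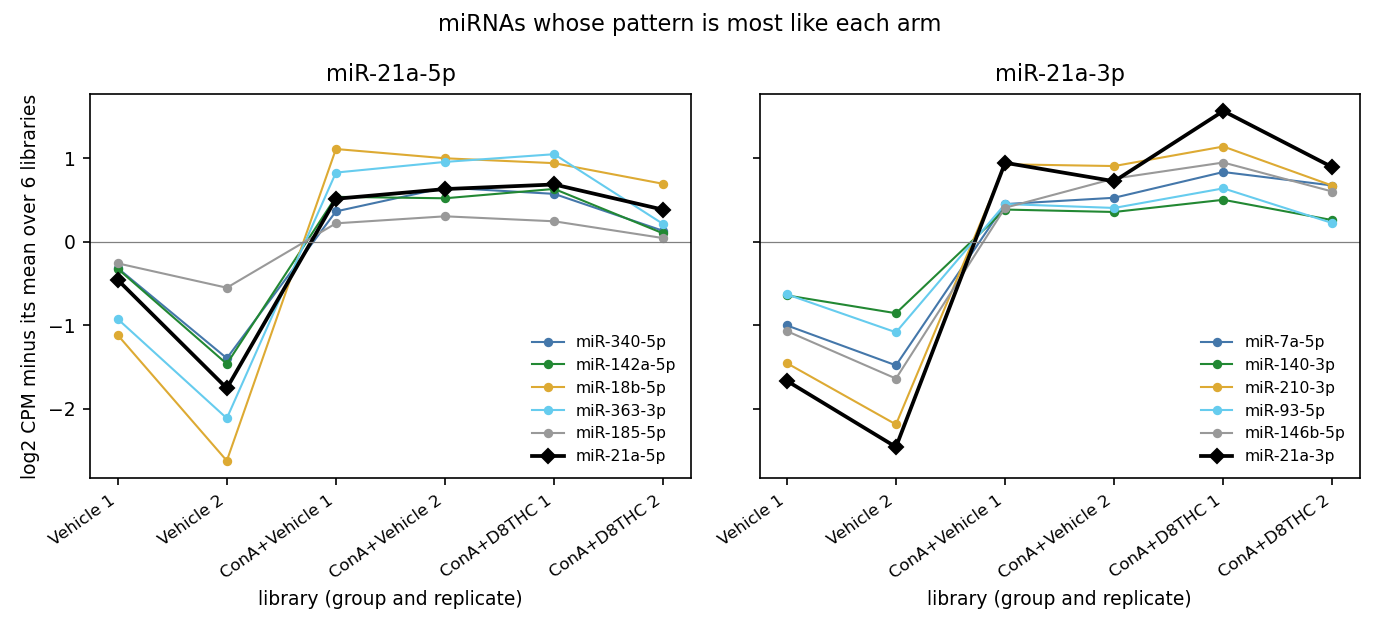
Log2 CPM minus the mean over the 6 libraries for miR-21a-5p (left) and miR-21a-3p (right) with the 5 miRNAs most like each; lines join the libraries only to guide the eye. In both panels all series are lower in Vehicle replicate 2 than in Vehicle replicate 1, and lower in Vehicle than in the other groups.

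miR-21a belongs to a set of 18 miRNAs whose transcripts are known to be induced by inflammatory signals in immune cells, of which 14 were tested. The set was chosen with earlier results of these data known, so its counts and medians are a description and no test. In ConA+Vehicle against Vehicle, 8 were called higher, 1 lower and 5 were not called, with a median log2 change of 1.20 against 0.10 over all miRNAs, of which 19.9% were called higher and 16.8% lower. Without the arms of miR-21a, 6 of 12 were called higher, with a median of 0.81. miR-155-5p, which promotes T cell and macrophage activation, rose 6.77-fold, from 1511 and 1091 CPM to 9125 and 8489 CPM. miR-146b-5p rose 3.81-fold. miR-147-3p, induced by Toll-like receptors, rose 11.6-fold, from 6 and 6 counts in Vehicle to 35 and 20 in ConA+Vehicle. Such low counts limit the precision of that fold. miR-187-3p fell 2.60-fold. miR-146a-5p, a brake on NF-kB signalling, was at 24685 and 20168 CPM in Vehicle and 13526 and 17124 CPM in ConA+Vehicle (log2 -0.55, edgeR adjusted p = 0.0856). miR-132-3p was at log2 0.24 (adjusted p = 0.549). The guide of miR-21a was thus more abundant than any other of these miRNAs in the ConA+Vehicle libraries. Its estimated fold was below those of miR-155-5p, miR-147-3p and miR-146b-5p, but differences between these folds were not tested. The interval of the guide, 1.60-fold to 5.28-fold, held the 3.81-fold of miR-146b-5p. The order of the guide and miR-146b-5p is thus not settled.

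Under the scaling to miR-142a, 2 of the 14 were called higher in ConA+Vehicle, the arms of miR-147. Their counts in Vehicle were 6 and 6 for miR-147-3p and 1 and 0 for miR-147-5p. Called lower was 1, miR-187-3p, while 3.03% of all miRNAs tested were called higher and 21.2% lower. The median then changed sign, to log2 -0.10 against -1.17 over all miRNAs, and miR-155-5p was 2.93-fold higher without passing the test (edgeR adjusted p = 0.120).

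In ConA+D8THC against Vehicle, 9 of the 14 were called higher and 0 lower, with a median of 1.28 against -0.06 over all miRNAs, of which 18.5% were called higher and 14.1% lower. Without miR-21a, 7 of 12 were called higher, with a median of 1.04. Under the scaling to miR-142a, 2 of the 14 were called higher, with a median of 0.07 against -1.21 over all miRNAs, and -0.16 without miR-21a. That scaling called 1.68% of all miRNAs higher and 16.8% lower. Between ConA+D8THC and ConA+Vehicle 0 of the 14 were called by edgeR, 0 by DESeq2 and 0 by limma-voom, and 0 had an unadjusted p under 0.05 in edgeR, with a median of 0.04 against -0.04 over all miRNAs. Over all miRNAs edgeR called 3.7%, and 18.9% had an unadjusted p under 0.05.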

How the data were processed

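Small RNA of 6 libraries from mouse liver immune cells was measured. Per the labels' protocols, RNA was extracted with miRNeasy and libraries were made with the QIAseq miRNA kit. The deposited values are the authors' raw counts per miRNA, made with the GeneGlobe portal per the series' design text, on build mm10 per the submitters' processing notes. The sources used here do not name the aligner, the miRNA annotation release, or how molecular identifiers and reads matching several miRNAs were treated.

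From those counts, edgeR 4.0.16 (R 4.3.3) kept 297 of 1960 miRNAs (filterByExpr by group; at least 99.89% of each library's counts), scaled libraries by TMM, and fitted all 6 libraries with robust quasi-likelihood on 3 residual degrees of freedom, with Benjamini-Hochberg adjustment over all miRNAs and calls at an adjusted p under 0.05. Log2 CPM used a prior count of 2. The ratio of arms was fitted in the same way on 66 hairpins, with a term for each library. Both scripts were also run on simulated counts that gave all miRNAs the same spread between replicates, which is simpler than these data. The outcome of that run is not reported here. With 2 libraries against 2, an exact permutation test cannot go below p = 0.333, and none was used.

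Named miRNAs were the 2 arms, their near-copies and miRNAs sharing a seed, neighbours in level, the 5 most alike per arm among miRNAs averaging at least 10 CPM, called and fixed members of the inflammatory list, and the 3 hairpins with the largest called changes of ratio in each direction, with 6 fixed ones. The scaling to miR-142a counts was added after the data had been seen. The members and lists were chosen with earlier results of these data known. Alternatives used limma 3.58.1 and DESeq2 1.42.0. Sequences came from RefSeq tables and annotation from GENCODE M21; hairpin pairing was computed with RNAfold.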

Additional observations from a re-analysis of the deposited data

How the results depend on the processing

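The direction of miR-21a-5p and miR-21a-3p against Vehicle held under all 15 alternatives run, in both comparisons. Both calls of the guide and the ConA+Vehicle call of the passenger were lost under 1 of them, the scaling to miR-142a, which was chosen after seeing the data (log2 0.55, 0.63 and 1.83). The passenger was called in ConA+D8THC under all 15. Leaving out 1 library at a time gave log2 1.03 to 2.33 for the guide and 2.56 to 3.41 for the passenger in ConA+Vehicle, and 1.00 to 2.30 and 2.99 to 3.88 in ConA+D8THC. Between the ConA groups the ranges were -0.19 to 0.33 and 0.05 to 0.95, and neither arm was called. With 1 library left out the change of the arm ratio ranged over log2 1.09 to 1.54 in ConA+Vehicle, 1.52 to 1.97 in ConA+D8THC and 0.24 to 0.61 between the ConA groups, and the ConA+Vehicle call was lost without either ConA+Vehicle library. It was also not called with limma in ConA+Vehicle (1.29 and 1.26 with pseudocounts of 0.5 and 2) or, at 0.5, in ConA+D8THC (1.72). Where a call was lost, the cause was not tested.

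The count of called miRNAs in ConA+D8THC against ConA+Vehicle moved from 11 to 23 in a fit of those 4 libraries alone, 17 with DESeq2, 19 with no filter, 44 with the replicate block, 4 with miR-142a scaling, and 6 to 28 with 1 library left out. With markers of endothelium and hepatocytes removed the split was 6 higher and 10 lower, against 0 and 11. Scaling to miR-142a gave 72 in ConA+Vehicle (9 higher, 63 lower) and 55 in ConA+D8THC (5 higher, 50 lower) against Vehicle, and leaving out 1 library gave 63 to 125 and 60 to 107. Hairpins with a changed ratio in ConA+Vehicle numbered 14, but 9 in a fit of 4 libraries, 2 and 3 with limma at the 2 pseudocounts, and 1 to 14 with 1 library left out. In ConA+D8THC against Vehicle they numbered 22, but 1 with limma at a pseudocount of 0.5 and 8 to 19 with 1 library left out. Between the ConA groups there were 0, but 2 in a fit of 4 libraries, with limma at a pseudocount of 2 and with the block, and 0 to 2 with 1 library left out.

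The replicate block changed no call of either arm or of their ratio: the guide was at log2 1.65 and the passenger at 2.97 in ConA+Vehicle, and at 1.59 and 3.37 in ConA+D8THC. Same-numbered libraries correlated in their deviations from the group means at 0.203, 0.238 and 0.0726, so the numbers are not shown to pair the libraries. The passenger had 35 to 40 counts in Vehicle, which limits the precision of its fold and of the arm ratio.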
